A study of Mus musculus with 6 samples.

Results

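The nuclear-encoded subunits of respiratory complexes II to V, with cytochrome c, were compared between livers of Nrf2 knockout and wild-type mice. They were taken by symbol as the probe sets naming exactly 1 gene that is Sdha, Sdhb, Sdhc, Sdhd, Cyc1 or Cycs, or that begins with Uqcr, Cox4, Cox5, Cox6, Cox7, Cox8 or Atp5. This gave 96 of 45037 non-control probe sets and 48 of 18193 named genes, with 4 genes in complex II, 9 in complex III, 17 in complex IV, 17 in complex V and cytochrome c alone. The arrays were 1-colour Affymetrix mouse arrays, with 3 for each genotype. The knockout group carried the label Nrf2 ko and the control group Nrf2 wt, both groups were of strain C57B/SV129 and aged 10 weeks, and each array held liver RNA pooled from 3 animals. The labels name no treatment, injury or surgery for either group, and they do not say how the Nrf2 allele was made. Arrays are numbered as biological replicates, with no word on whether pools shared animals, so errors here measure the spread between pools. The study as a whole concerned impaired liver regeneration and insulin resistance in these mice.

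Complex II passes electrons from succinate to ubiquinone, complex III passes them on to cytochrome c, and complex IV, cytochrome c oxidase, hands them to oxygen. Complexes III and IV pump protons, and complex V, the ATP synthase, uses the proton gradient to make ATP. Complexes III, IV and V also contain subunits encoded in mitochondrial DNA, which are not among the genes described here. Nuclear respiratory factor 1 and the ETS factor GABP are known activators of the nuclear subunit genes. GABP has also been called nuclear respiratory factor 2, which is a different protein from Nrf2, the antioxidant regulator encoded by Nfe2l2 that these mice lacked.

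Promoters are shown for 5 genes chosen after their values were seen: for the gene with the smallest p in complexes II, III and IV (Sdhd, Uqcr11 and Cox6b2), for Atp5k, which had the largest difference in complex V, and for Cox6b1, the common counterpart of Cox6b2. Each is the 250 bases before the RefSeq transcription start in GRCm38.p6, on the minus strand and written 5′ to 3′. Capitals mark matches on either strand to the palindromic core of the nuclear respiratory factor 1 motif and to CCGGAAG, the ETS core bound by GABP.
Sdhd chr9:50603850-50604099: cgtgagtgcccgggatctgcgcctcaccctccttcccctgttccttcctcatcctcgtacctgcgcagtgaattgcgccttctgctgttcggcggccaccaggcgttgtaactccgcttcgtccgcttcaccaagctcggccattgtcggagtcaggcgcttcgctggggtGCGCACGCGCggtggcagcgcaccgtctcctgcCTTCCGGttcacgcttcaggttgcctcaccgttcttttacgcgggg
Uqcr11 chr10:80406822-80407071: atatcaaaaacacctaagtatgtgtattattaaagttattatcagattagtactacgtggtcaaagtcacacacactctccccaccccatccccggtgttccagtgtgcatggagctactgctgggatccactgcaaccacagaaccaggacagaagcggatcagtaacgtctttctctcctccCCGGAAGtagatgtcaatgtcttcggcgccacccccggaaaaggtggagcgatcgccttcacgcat
Cox6b1 chr7:30626115-30626364: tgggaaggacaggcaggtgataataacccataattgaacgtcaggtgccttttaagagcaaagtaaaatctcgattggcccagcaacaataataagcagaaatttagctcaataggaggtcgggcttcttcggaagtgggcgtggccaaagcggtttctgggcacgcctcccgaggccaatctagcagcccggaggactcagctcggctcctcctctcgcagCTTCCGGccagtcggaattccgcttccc
Cox6b2 chr7:4753095-4753344: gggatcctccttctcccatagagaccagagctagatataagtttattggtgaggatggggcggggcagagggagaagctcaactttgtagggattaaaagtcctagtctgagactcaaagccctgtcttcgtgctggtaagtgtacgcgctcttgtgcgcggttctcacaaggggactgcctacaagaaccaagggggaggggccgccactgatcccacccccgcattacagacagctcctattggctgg
Atp5k chr5:108434400-108434649: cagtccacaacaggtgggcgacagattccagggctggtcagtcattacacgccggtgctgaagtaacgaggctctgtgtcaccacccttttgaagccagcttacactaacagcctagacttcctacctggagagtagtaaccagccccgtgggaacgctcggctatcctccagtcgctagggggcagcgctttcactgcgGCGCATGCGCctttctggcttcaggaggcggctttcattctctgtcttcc

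The promoter of Sdhd held a match to each motif, that of Atp5k a match to the nuclear respiratory factor 1 core, and those of Uqcr11 and Cox6b1 a match to the ETS core. The testis-type isoform gene Cox6b2 held neither in this window. Of the 48 genes, 36 had a promoter in the RefSeq table. The nuclear respiratory factor 1 core was found in 17.9% of their 39 promoters and in 3.74% of all 32851 promoters of this length. The ETS core was found in 23.1% of them and in 6.91% of all promoters. The antioxidant response element core TGACNNNGC, searched on both strands, was in 1 of the 39, that of Atp5o, and in 10.2% of all promoters. The median log2 difference between genotypes was 0.16 over the 9 tested genes with the ETS core and 0.09 over the 25 without it, while it was 0.08 over the 7 with the nuclear respiratory factor 1 core and 0.16 over the 27 without it. These matches are a description of letters in a window and were set against no test.

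The genotype labels were checked at the targeted gene. Its brighter probe set was at a deposited intensity of 5.74 to 7.40 in the knockout pools and of 598 to 696 in the wild-type pools. A dimmer probe set of Nfe2l2, at 24.4 to 27.9 and 20.2 to 34.4, did not separate the genotypes. Array brightness, as the 2% trimmed mean, lay between 92.0 and 131, and values were normalised between arrays before any comparison. Liver identity was clear from the hepatocyte markers Alb, Ttr, Apoa1, Fgb, Cps1 and Tat, of which none was called. Their summed normalised intensity was 66436 to 70411 in knockout pools and 64879 to 66195 in wild-type pools. Singly, 4 of them were higher in the knockout and 2 lower, Alb at a log2 difference of -0.02 and Ttr at -0.01. The stellate cell markers, with 5 of 5 tested and 0 called, summed to 2752 to 3121 and 2157 to 2480. Kupffer cell, endothelial and red cell marker sums overlapped between the genotypes. The 3′ to 5′ actin control ratio, a sign of RNA integrity, averaged 1.97 ± 0.03 on knockout arrays (SD, n = 3) and 1.86 ± 0.08 on wild-type arrays. The groups did not overlap, with a lowest knockout value of 1.942 and a highest wild-type value of 1.936. The 3′ to 5′ Gapdh control ratio averaged 0.767 ± 0.037 on knockout arrays and 0.760 ± 0.006 on wild-type arrays, with overlap. The hepatocyte sum, the stellate cell sum and the actin ratio were thus higher in the knockout, as most subunit genes below were, and their part in those results was not tested. In bulk RNA, a change in the share of a cell type and a change of RNA per cell cannot be told apart.

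Most subunit transcripts of complexes II to V were slightly higher in the knockout, and no single gene passed the test. A probe set was tested when its mean log2 value reached the median of all probe sets, which kept 82 of the 96 and 45 of the 48 genes. Each gene was represented by its brightest tested probe set. With limma and Benjamini-Hochberg adjustment over all 22519 tested probe sets, 0 of the 82 passed an adjusted p of 0.05, where 0.142% of all tested probe sets passed. The lowest adjusted p of any subunit gene was 0.267, for Cox6b2.

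In direction, 40 of the 45 genes were higher in the knockout and 5 were lower, where 51.4% of all 11102 tested genes were higher. The median log2 difference, knockout minus wild type, was 0.12 over the 45 genes, a level 8.84% higher, and 0.01 over all tested genes. At an unadjusted limma p under 0.05 there were 15 genes higher and 0 lower, against 4.07% of all tested genes higher and 4.15% lower. The 3 knockout pools lay wholly above the 3 wild-type pools for 20 genes, against 7.38% of all tested genes, and wholly below for 0, against 6.55%. The members are mostly bright transcripts, so the 39 with a mean log2 value of at least 10 were also set beside the 1122 tested genes of that brightness. Of these 39, 37 were higher, 13 reached the unadjusted threshold and 18 did not overlap, where the bright genes gave 52.7%, 9.09% and 13.5%. Cox7a1 and Cox6a2 passed the filter only through the genotype in which they were higher. Over the 43 other genes, 39 were higher, 19 did not overlap and 14 reached the unadjusted threshold, which 3.98% of all genes with both genotypes at the filter did.

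The count at the unadjusted threshold depended on scaling. With each array centred on its median in place of quantile normalisation, 39 genes were higher, where 43.8% of all genes were, but 5 reached the unadjusted threshold, where 2.46% of all genes did, and 10 did not overlap, where 4.49% did. The median over all tested genes moved to -0.03 under that scaling, and the median over the subunit genes to 0.09. Without the intensity trend in the variance, 6 reached the unadjusted threshold, against 3.20% of all genes. With the replicate number as a block 13 did, against 4.67%. Leaving out a knockout pool gave 15 without pool 1 (3.54% of all genes), 9 without pool 2 (2.51%) and 10 without pool 3 (5.42%). Leaving out a wild-type pool gave 10 without pool 1 (3.43%), 12 without pool 2 (3.18%) and 12 without pool 3 (3.35%). Cox6b2, Atp5e, Atp5k and Atp5mpl reached it under quantile normalisation, median centring and the fit without the trend. Cox7a1, which passed the main filter only through the knockout, is also counted under each of these. The counts under the alternatives were not taken again without it.

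**Figure D1:**
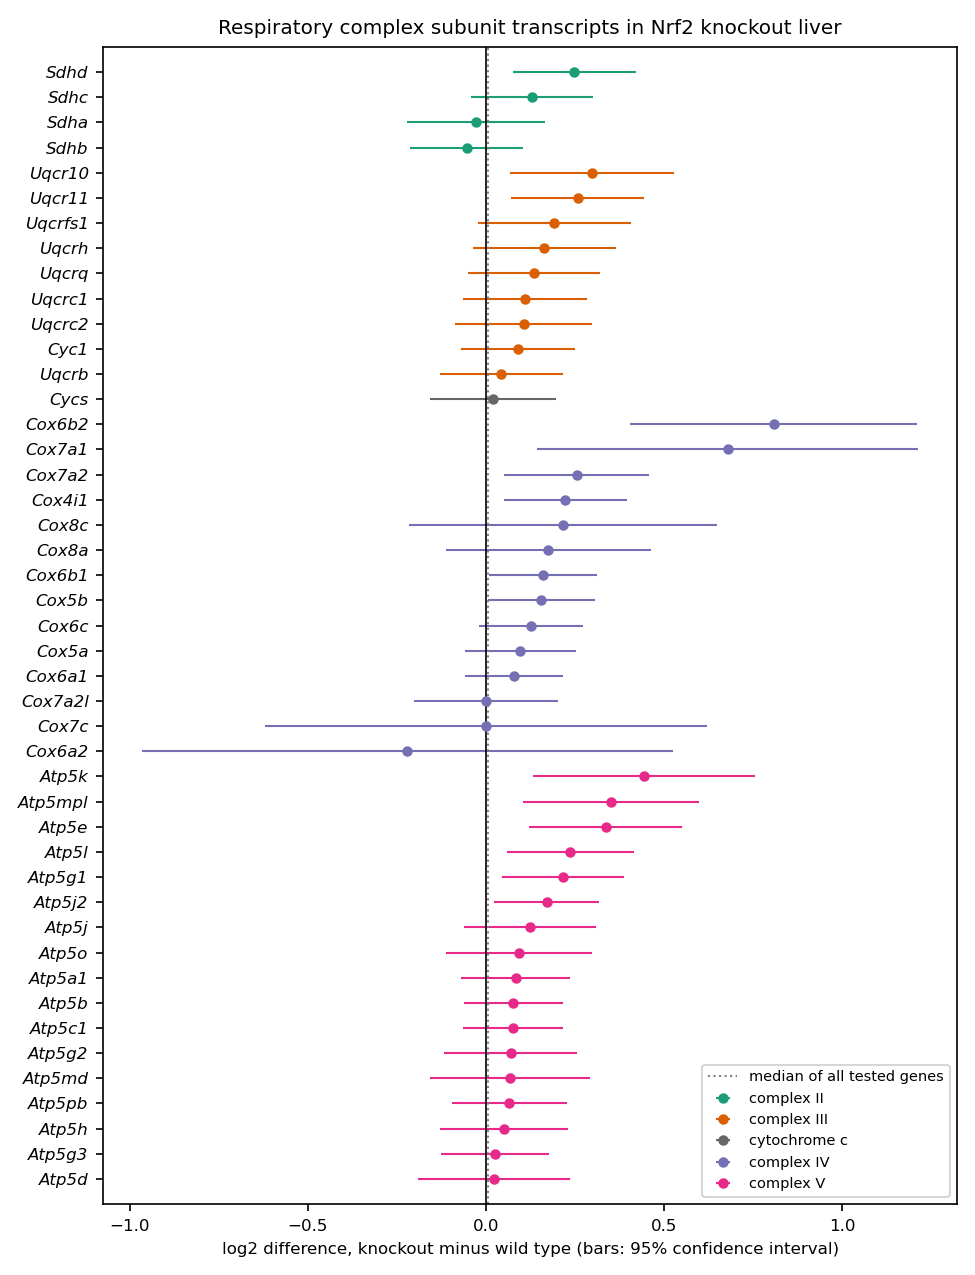
Log2 difference between knockout and wild type for each of the 45 tested genes, grouped by complex, with bars for the 95% confidence interval from limma (n = 3 pools per genotype). The vertical line is 0 and the dotted line is the median of all tested genes, 0.01, and 40 of the 45 points lie above 0.

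Set side by side, the complexes had medians on the same side of 0. The median log2 difference was 0.05 in complex II, 0.14 in complex III, 0.16 in complex IV and 0.08 in complex V, and cytochrome c was at 0.02. The place of complex II rested on the choice of probe set and pool: with a gene's probe sets averaged its median was 0.10, above the 0.09 of complex V, and without wild-type pool 1 it was 0.08. Every tested gene of complex III, 9 of 9, and of complex V, 17 of 17, was higher in the knockout, as were 11 of 14 in complex IV and 2 of 4 in complex II. In complex III each of the 9 genes was above its wild-type mean in every knockout pool. In complex IV 11 of 14 genes did so, as did 11 of 17 in complex V and 2 of 4 in complex II. The share of all tested genes that did so was not taken, so these counts give no contrast between complexes. The ranges of the genes' differences overlapped between all complexes, and no difference between complexes was tested.

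Each knockout pool was above each wild-type pool in the median over all subunit genes. The median over the 45 genes of the log2 value minus the wild-type mean was 0.10, 0.15 and 0.12 in knockout pools 1, 2 and 3, and -0.01, 0.03 and -0.02 in wild-type pools 1, 2 and 3. By complex, knockout pool 2 had the highest median in complexes III, IV and V, at 0.15, 0.20 and 0.18. The knockout and wild-type pools did not overlap in complexes III, IV and V. In complex II the knockout medians of 0.04 to 0.07 met the highest wild-type median of 0.04.

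**Figure D2:**
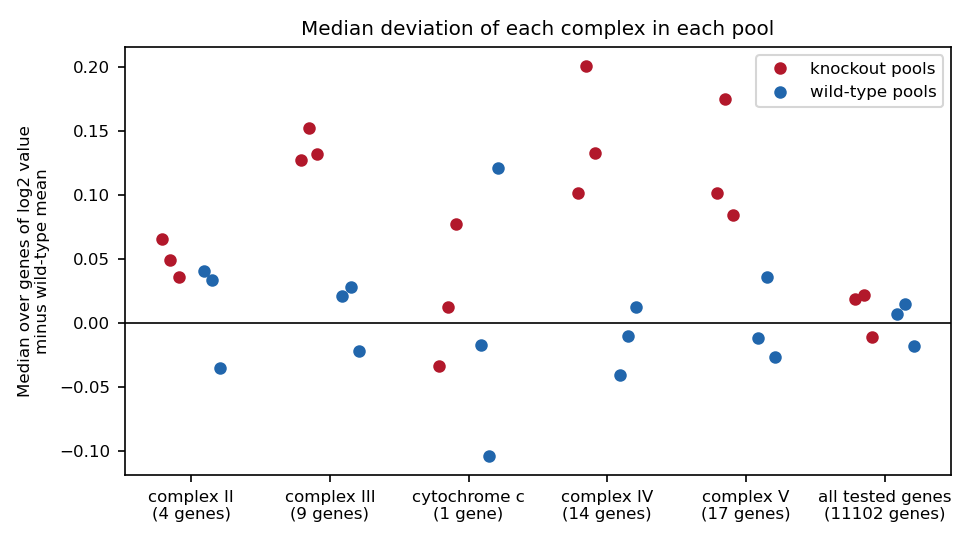
Median over genes of the log2 value minus the wild-type mean, for each complex and for all tested genes, with a point for each of the 6 pools. Knockout pools lie above wild-type pools in complexes III, IV and V, where the highest knockout medians are 0.15, 0.20 and 0.18, while the pools overlap for cytochrome c and for all tested genes.

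In complex II the membrane anchors and the catalytic subunits lay on different sides of 0 at their brightest probe sets. Values per pool are given as normalised intensities, on the linear scale after quantile normalisation. Sdhd, a membrane anchor that binds heme and ubiquinone, was at 1942, 1919 and 1854 in the knockout pools, against wild-type levels of 1663, 1638 and 1515. All knockout pools were above all wild-type pools, and the log2 difference was 0.25 ± 0.08 (SE, n = 3 per genotype), 18.7% higher, with an adjusted p of 0.514. A dimmer probe set of Sdhd was at 0.13 with overlapping pools, and the mean over its probe sets at 0.19. Its partner anchor Sdhc was at 2289, 2325 and 2294 against 2151, 1968 and 2208, also without overlap, a difference of 0.13 ± 0.08 (adjusted p = 0.744). It was 0.08 without wild-type pool 2. A second, dimmer probe set of Sdhc was at -0.03, and the mean over its probe sets at 0.05.

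The flavoprotein gene Sdha, which carries the succinate site, was at 3270.2, 3145 and 3128 in the 3 knockout pools, with wild-type pools at 3477, 3378 and 2901. The groups overlapped, with a log2 difference of -0.03 ± 0.09 and a 95% confidence interval from -0.22 to 0.17. Sdhb, the iron-sulfur subunit, was at 3038, 2923 and 2814 against 2936, 3115 and 3059, a difference of -0.05 ± 0.07 with an interval from -0.21 to 0.10. The upper end for Sdha lies above the difference of Sdhc and that for Sdhb below it, and the difference between anchors and catalytic subunits was not tested. Probe sets of Sdha did not all go the same way, since a dim one was at 0.55 ± 0.22, and the mean over its probe sets was 0.16.

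In complex III every tested gene was higher, by 0.04 to 0.30 on the log2 scale, and the largest differences were at small subunits. Uqcr11, a small subunit bound near the iron-sulfur protein, was at 2324, 2749 and 2497 in the knockout pools, against 2089, 2126 and 2103 in the wild-type pools. The knockout pools were all higher, by 0.26 ± 0.08 on the log2 scale or 19.5% (adjusted p = 0.536). Uqcr10, another small subunit, was at 1119, 1387 and 1148 against 998, 1005 and 954. Its difference was 0.30 ± 0.10, 22.9% higher (adjusted p = 0.567), and all 3 of its probe sets were higher, by 0.26 to 0.30.

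The catalytic iron-sulfur protein gene Uqcrfs1 was at 2631, 2734 and 2770.1 in knockout pools, with wild-type pools at 2571, 2506 and 2075. The groups did not overlap, but the low wild-type pool 3 set much of the difference of 0.19 ± 0.09 (adjusted p = 0.688), which was 0.09 without that pool. The hinge protein gene Uqcrh was at 2580.4, 3103 and 2738 against 2381, 2612 and 2506, with overlap, a difference of 0.16 ± 0.09 that was 0.09 without knockout pool 2. Uqcrq was at 0.14, the core protein genes Uqcrc1 and Uqcrc2 at 0.11 and 0.10, the cytochrome c1 gene Cyc1 at 0.09 and Uqcrb at 0.04. By role, the median was 0.16 over 5 small subunits, 0.14 over the redox subunits Cyc1 and Uqcrfs1, and 0.11 over the core proteins.

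Cytochrome c, which carries electrons from complex III to complex IV and also takes part in apoptosis, was at nearly the same level in both genotypes. Cycs was at 4868, 5027 and 5259 in the 3 knockout pools, with wild-type pools at 4924, 4637 and 5420.5. The groups overlapped, and the log2 difference was 0.02 ± 0.08 with a 95% confidence interval from -0.16 to 0.20. Its other probe sets were at 0.10, -0.12 and 0.20. With median centring its difference was -0.00065, so no direction can be given for it.

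In complex IV the subunits used in most tissues were higher by small amounts. Of 9 such genes tested, 8 were higher, with a median of 0.16. An unadjusted limma p under 0.05 was reached by 4 of them, all higher, against 4.07% of all tested genes and 9.09% of the bright ones. Cox4i1, the common isoform of subunit 4, was at 4583, 5009 and 4987 in the knockout pools, against 4458, 3938 and 4112 in the wild-type pools. The pools did not overlap, and the log2 difference was 0.22 ± 0.08, 16.6% higher (adjusted p = 0.567). Cox7a2, the liver-type isoform of subunit 7a, was at 5279, 6310.4 and 6062 against 4909, 5287 and 4583. Knockout pool 1 lay just below wild-type pool 2, and the difference was 0.25 ± 0.09 (adjusted p = 0.574). The other probe set of Cox7a2 was at 0.12 with overlap, and the mean over both at 0.19.

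Cox6b1, the common isoform of a subunit that bridges the dimer, was at 6089, 6723 and 6221 in knockout pools, with wild-type pools at 5727, 5552 and 5746. All knockout pools were higher, by 0.16 ± 0.07 on the log2 scale (adjusted p = 0.631), and its other probe set was at 0.23. Cox6a1, the liver-type isoform of subunit 6a, was at 6371, 6600.2 and 6277 against 6044, 6019 and 6160.2. Those pools did not overlap either, though the difference was only 0.08 ± 0.06 (adjusted p = 0.805). Its other probe set overlapped, at 0.0042, and the mean over both was 0.04. Cox8a, the liver-type isoform of subunit 8, was at 1230.0, 1551 and 1284 against 1159, 1385 and 1059.7, with overlap and a difference of 0.17 ± 0.13. That difference was 0.07 without knockout pool 2, 0.09 without wild-type pool 3 and 0.28 without wild-type pool 2.

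Of the remaining common subunits, Cox5b was at 0.16 ± 0.07, with all 5 of its tested probe sets higher and no overlap at the brightest. Cox6c was at 0.13 ± 0.06 and Cox5a at 0.10 ± 0.07, each higher at every tested probe set. The probe sets assigned to Cox7c were dim on all arrays, and the tested one, between 20.7 and 41.8, was at -0.0014 ± 0.27. Cox7a2l, which encodes a factor for assembling supercomplexes and not a regular subunit, was at -0.00068 ± 0.09 with a 95% confidence interval from -0.20 to 0.20.

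The largest differences among the 45 genes were at Cox6b2 and Cox7a1, tissue isoforms of complex IV that were dim in liver. Cox7a1 passed the filter only through the knockout. The other tested tissue isoforms, Cox8c and Cox6a2, were at 0.21 and -0.22. Cox6b2, the testis isoform of subunit 6b, was at 61.2, 55.5 and 68.1 in the 3 knockout pools, with wild-type pools at 31.2, 28.4 and 39.8. Every knockout pool was above every wild-type pool, and the log2 difference was 0.81 ± 0.18, 74.9% higher, with a 95% confidence interval from 0.40 to 1.21 and an adjusted p of 0.267. Over the alternatives in which it was tested, the adjusted p of Cox6b2 was never below 0.180. It is a single probe set, and a pseudocount changes so dim a value: the difference ranged from 0.61 to 0.88 over the larger and smaller pseudocounts tried.

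The testis markers were read beside Cox6b2. Of the 5 markers Prm1, Prm2, Tnp1, Tnp2 and Ldhc, Prm1 alone was bright enough to be tested, and the summed intensity of the 5 was 178 to 245 in knockout pools and 96.1 to 193 in wild-type pools. Its tested, brightest probe set was at 0.69 ± 0.27 with overlapping pools (adjusted p = 0.612). At dimmer probe sets of Prm1, chosen after their values were seen, knockout pools were at 114 to 161 and wild-type pools at 0.602 or less. These probe sets passed the filter only through the knockout, and no test of them is used. The other 4 markers stayed between 0.382 and 8.69 on all arrays. The part of Prm1 signal, or of its source, in the level of Cox6b2 was not tested. Cox8c, another testis isoform, was at 0.21 ± 0.19 with overlapping pools, and Cox7b2, also a testis isoform, was below the filter.

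Cox7a1, the muscle and brown fat isoform of subunit 7a, was at 22.7, 39.2 and 26.0 in the knockout pools, against 14.6, 17.4 and 15.9 in the wild-type pools. The pools did not overlap, knockout pool 2 being highest, and the log2 difference was 0.68 ± 0.23, 60.0% higher on this scale. Its wild-type mean lay below the filter and its knockout mean above, so it was tested only because the knockout was high. No weight is put on its own test, though the counts of 15, 5 and 6 genes at the unadjusted threshold include it. Cox6a2, a muscle isoform of subunit 6a, was at 25.1, 10.2 and 15.7 against 12.4, 26.7 and 22.4, with overlap and a difference of -0.22 ± 0.33, and passed only through the wild type. Cox8b, between 0.709 and 9.88, was below the filter, and so was Cox4i2, the isoform linked to low oxygen, between 1.39 and 14.9.

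Marker lists of muscle and brown fat were read beside Cox7a1. The 10 muscle markers summed to 61.9 to 97.1 in knockout pools and 78.8 to 106 in wild-type pools, with Ckm alone above the filter. The 5 brown fat markers summed to 3018 to 5369 in knockout pools and 5632 to 5807 in wild-type pools, lower and without overlap. Nearly all of that sum was Elovl3, which liver also expresses, at -0.44 ± 0.19 (adjusted p = 0.649). The brown fat markers Ucp1, Cidea and Adipoq were at 7.07 or less on every array.

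**Figure D3:**
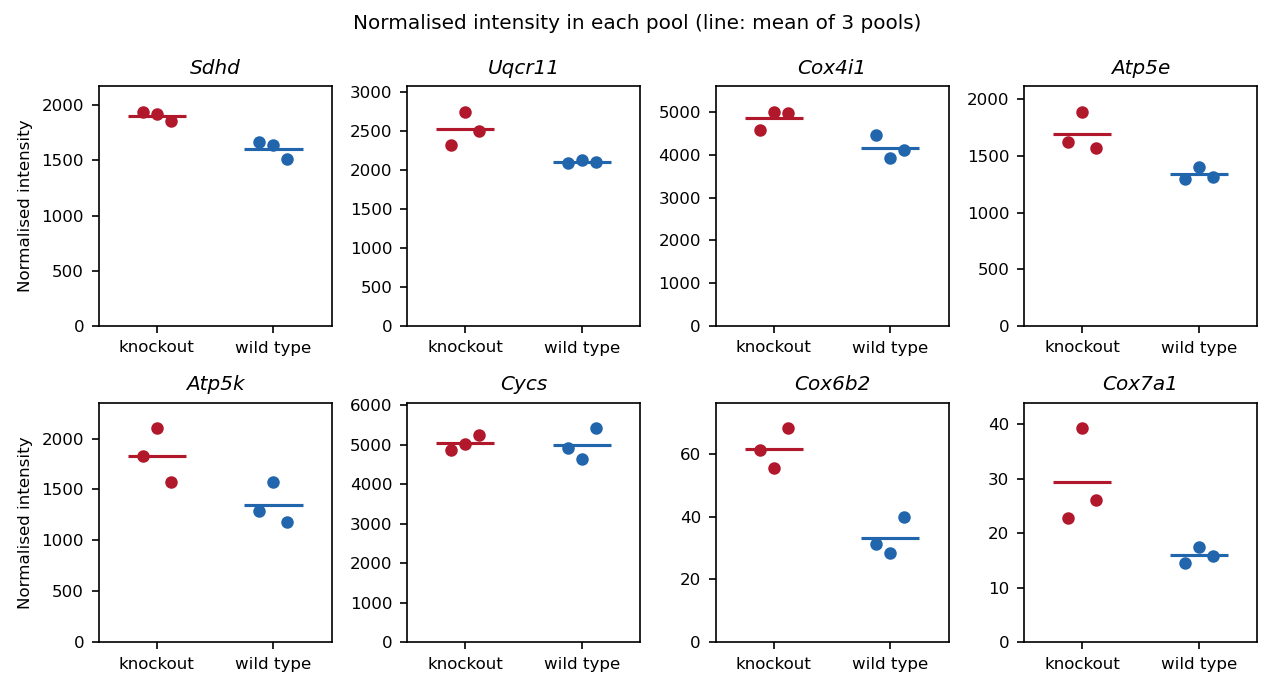
Normalised intensity of 8 genes in each of the 6 pools, on linear axes that start at 0, with a line at the mean of the 3 pools of a genotype. Knockout pools lie above all wild-type pools for Sdhd, Uqcr11, Cox4i1, Atp5e, Cox6b2 and Cox7a1, while Atp5k and Cycs overlap.

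In complex V the largest differences were at Atp5k and Atp5mpl, which are small membrane subunits, and at Atp5e of the central stalk. Of the 5 small membrane subunits of the stator and dimer contacts, all were higher, with a median log2 difference of 0.24. An unadjusted limma p under 0.05 was reached by 4 of them, against 9.09% of the bright tested genes higher. Atp5k, encoding subunit e, which takes part in joining the enzyme into dimers, was at 1826, 2101 and 1570.4 in the knockout pools. In the wild-type pools it was at 1285, 1573 and 1183, so that knockout pool 3 and wild-type pool 2 just overlapped. The difference was 0.44 ± 0.14, 36.0% higher (adjusted p = 0.515), and its other probe sets were at 0.44 and 0.39 without overlap.

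Atp5mpl, a small proteolipid of the membrane part, was at 1532, 1748 and 1725 in knockout pools, with wild-type pools at 1184, 1504 and 1251. The groups did not overlap, and the difference was 0.35 ± 0.11, 27.4% higher (adjusted p = 0.520). Atp5l, encoding subunit g, the partner of subunit e, was at 2287, 2574 and 2541 against 2121, 2146 and 2007. All knockout pools were higher, by 0.24 ± 0.08 (adjusted p = 0.559). Atp5j2, encoding subunit f, was at 0.17 ± 0.06 without overlap, and Atp5md, a further dimer-associated protein, at 0.07 ± 0.10.

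In the catalytic head and central stalk the 5 genes had a median of 0.08. The knockout pools lay wholly above the wild-type pools for 3 of them, where 13.5% of the bright tested genes did so. As many did not overlap among the small membrane subunits. The difference between these groups was not tested. Atp5e, encoding the epsilon subunit of the central stalk, was at 1623, 1892 and 1568 in the 3 knockout pools, with wild-type pools at 1298, 1404 and 1313. Every knockout pool was higher, and the log2 difference was 0.33 ± 0.09, 26.1% higher (adjusted p = 0.439). The alpha, beta, gamma and delta subunit genes Atp5a1, Atp5b, Atp5c1 and Atp5d were at 0.08, 0.08, 0.08 and 0.02, each with a confidence interval that includes 0. The pools of Atp5a1 and Atp5c1 did not overlap at the brightest probe set. They overlapped at the other probe sets, which were at 0.04 and 0.12 for Atp5a1 and at -0.32 for Atp5c1.

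The 3 genes for subunit c, which forms the rotating ring and is the same mature protein from each gene, had differences of unequal size, which were not tested against each other. Atp5g1 was at 0.22 ± 0.07, 16.2% higher with no overlap (adjusted p = 0.569), while Atp5g2 was at 0.07 ± 0.08 and Atp5g3 at 0.03 ± 0.07. In the peripheral stalk, which holds the head still, Atp5j was at 0.12, Atp5o at 0.09, Atp5pb at 0.06 and Atp5h at 0.05, all with overlapping pools. Another probe set of Atp5h was at 0.24 ± 0.08 without overlap, so the probe sets of this gene gave different sizes.

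**Figure D4:**
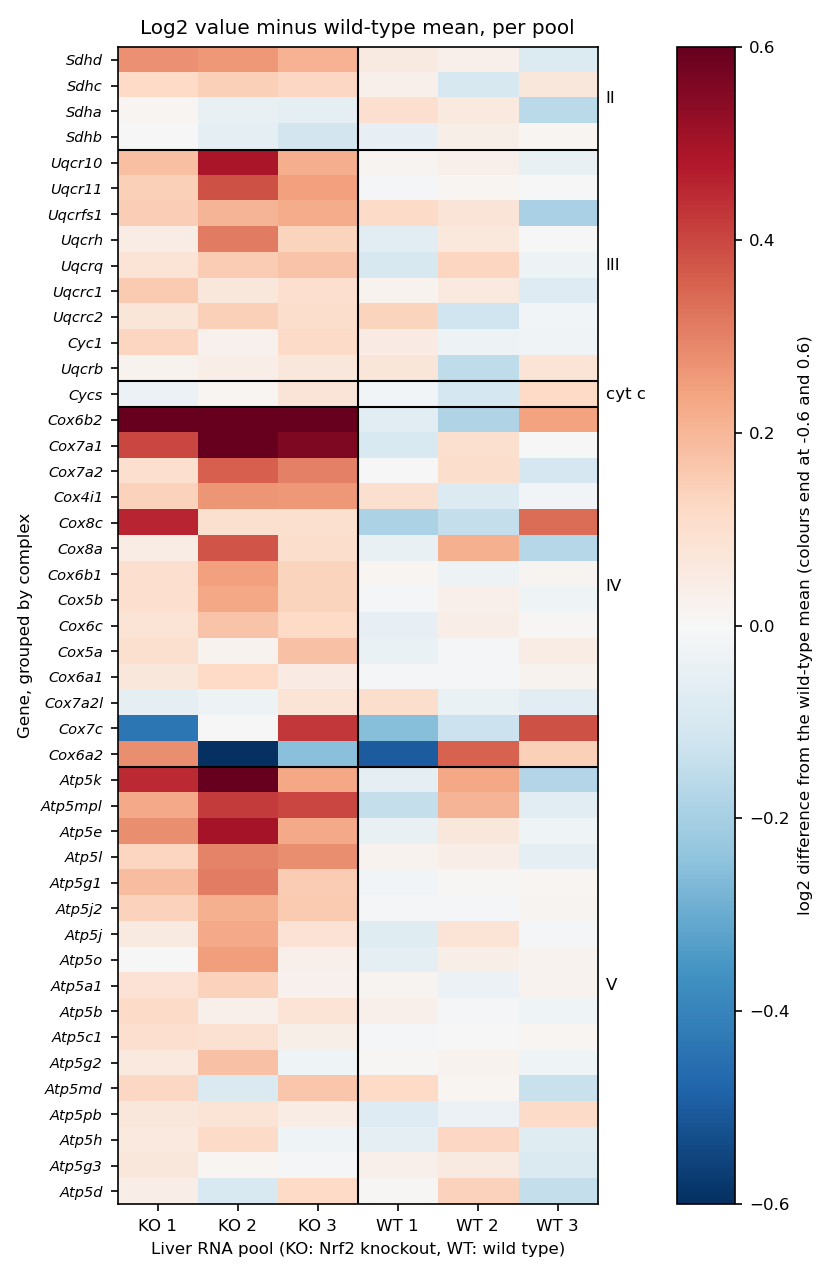
Log2 value minus the wild-type mean for the 45 tested genes (rows, grouped by complex) in the 6 pools (columns, KO for knockout and WT for wild type), with colours ending at -0.6 and 0.6. Red fills most of the knockout columns in complexes III, IV and V and is often deepest in knockout pool 2, while the rows of Sdha, Sdhb and Cycs are pale or blue in knockout pools 1 and 2.

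Probe sets of the same gene mostly gave the same direction. Of 25 genes with at least 2 tested probe sets, all tested probe sets were higher for 17, and the other 8 had both directions. Over probe sets, 4 of 8 were higher in complex II, 14 of 15 in complex III, 24 of 27 in complex IV and 25 of 28 in complex V. The 14 probe sets below the filter reached at most 26.2, and in a fit of all probe sets their lowest adjusted p was 0.695. Several subunits have processed pseudogenes in the mouse genome, and the share of each copy in a probe set's signal cannot be told apart here.

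Other genes of the respiratory chain and of mitochondrial upkeep were looked at as lists. Complex I, the entry point for electrons from NADH, was taken by symbol alone. Its list holds genes that begin with Ndufa, Ndufb, Ndufc, Ndufs or Ndufv, with Ndufaf left out. Ndufa4, at 0.04, is on it by this rule, and membership of the complex was not checked. Of the 34 genes tested, 32 were higher, with a median of 0.12, and 0 passed. The unadjusted threshold was reached by 8 higher genes and 1 lower gene, against 4.07% of all tested genes higher and 4.15% lower. The lower gene, chosen after its values were seen, was Ndufb1 at -0.37. It was the dimmest of the list, at a mean log2 value of 5.85, where the median of the list was 10.7. Ndufa5 was at 0.47 ± 0.10 (adjusted p = 0.254), Ndufb7 at 0.27 ± 0.07 and Ndufa3 at 0.27 ± 0.08.

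Factors that assemble complexes II to V were higher for 20 of 31 tested genes, with a median of 0.07. The unadjusted threshold was reached by 1 higher gene, against 4.07% of all tested genes higher. That gene was Uqcc3, a complex III assembly factor, at 0.30 ± 0.12, also chosen after its values were seen. Regulators of mitochondrial biogenesis were higher for 10 of 15, with a median of 0.01. Among them the coactivator gene Ppargc1a, chosen after its values were seen, was at 128, 209 and 217 in the knockout pools. In the wild-type pools it was at 102, 77.7 and 132. Knockout pool 1 overlapped with the wild type, and the log2 difference was 0.79 ± 0.24 (adjusted p = 0.514). Of the 5 regulators that were lower, Esrra was at -0.26 ± 0.13 without overlap. Carriers and matrix enzymes, used here as markers of mitochondrial content, were higher for 12 of 16 with a median of 0.08, and 0 reached the unadjusted threshold in either direction. No gene of these 4 lists passed limma over all probe sets.

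**Figure D5:**
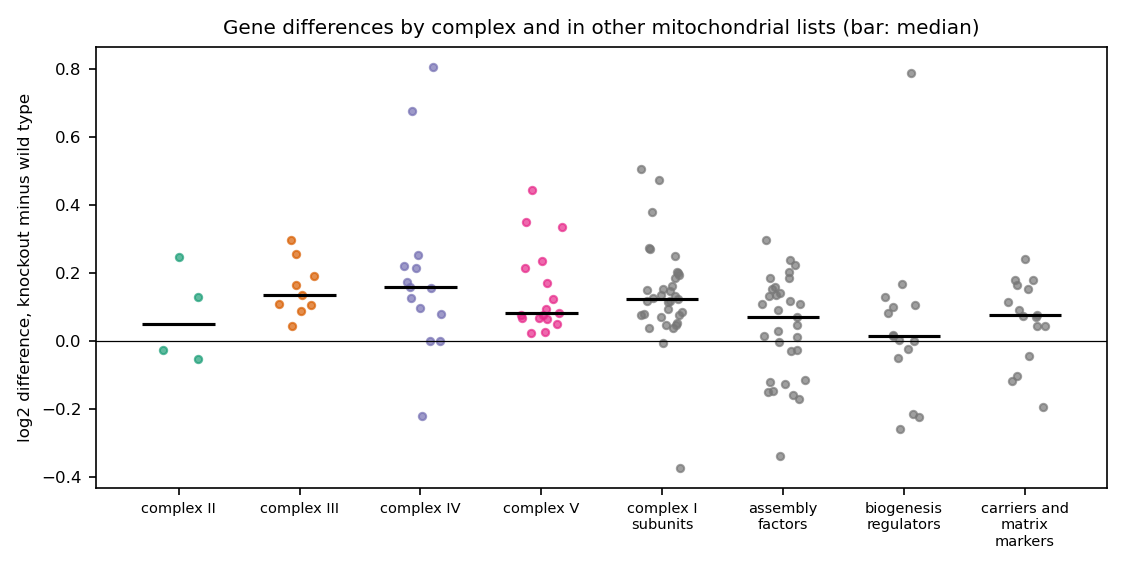
Log2 difference between knockout and wild type for each tested gene of complexes II to V and of the complex I, assembly, biogenesis and carrier lists, with a bar at each median. The medians are 0.05, 0.14, 0.16 and 0.08 for complexes II to V and 0.12, 0.07, 0.01 and 0.08 for the 4 other lists.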

How the data were processed

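The deposited values are linear probe set intensities from biotin-labelled RNA on Affymetrix arrays. The only tool recorded, per the submitters' processing notes, is GCOS 1.4, and how signals were scaled or filtered is not stated there. Gene symbols follow the platform annotation, updated through the Entrez identifier.

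To each intensity 5.26 was added (the 25th percentile over all arrays) before log2 was taken, and the result was quantile normalised without the 64 control probe sets. A fold on this scale understates the change of dim probe sets. Normalised intensities are these values returned to the linear scale. Probe sets with a mean at or above the median were tested with limma 3.58.1 in R 4.3.3 (intensity trend, Benjamini-Hochberg over all 22519, threshold 0.05). On simulated data this procedure recovered the sizes put in on average, made more false calls than its nominal rate, and rarely called changes as small as most described here. The 6 arrays limit the precision. The members, lists, tests and alternatives were chosen with earlier results of these data known. Values per pool are given for the 4 genes with the smallest p in each complex, Cycs and isoform pairs. Deviations of same-numbered pools correlated at 0.13, 0.05 and 0.25, and those of differently numbered pools at -0.19 to 0.10. The main fit left pools unpaired, and whether equal numbers mark a pairing or a batch was not tested. With the replicate number as a block in limma, the adjusted p of Atp5k was 0.155.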

Additional observations from a re-analysis of the deposited data

How the results depend on the processing

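No member probe set passed an adjusted p of 0.05 under any alternative that gave this count, and no subunit gene was lower at an unadjusted p under 0.05 under any. Between 38 and 42 genes were higher in every setting, of 41 to 48 tested. The count higher at the unadjusted threshold, 15, was 5 with median centring, 6 without the intensity trend, 13 when replicate number entered as a block (4.67% of all genes), and 9 to 15 with a pool left out (2.51% to 5.42%). The counts of 15, 5 and 6 include Cox7a1. With the block the count over all probe sets was 32, as without it, and no subunit probe set was among them. That count was 20 when all probe sets were tested, 19 when the filter stood at the 70th percentile, 18 without the trend, and 18 to 29 with a pool left out (18 without wild-type pool 2, 19 without knockout pool 1 or 2).

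With a gene's probe sets averaged, the median was 0.10 in complex II and 0.11 in complex III, and Sdha turned to 0.16. With a pool left out, the median ran from 0.042 to 0.083 in complex II (0.083 without wild-type pool 1), from 0.10 to 0.20 in complex III (0.20 without wild-type pool 2), from 0.12 to 0.19 in complex IV and from 0.08 to 0.11 in complex V. Differences near 0 changed sign: Cycs was -0.00065 with median centring and -0.033 to 0.081 with a pool left out, Sdha ran from -0.11 to 0.023 and Cox6a2 from -0.47 to 0.014. The median over all subunit genes was 0.09 with median centring, against -0.03 over all tested genes. The causes were not tested.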
